A study of Mus musculus with 4 samples.

Results

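The subunits of the replicative DNA polymerases and of primase were read on whole-genome arrays of mouse embryonic fibroblasts (MEFs) that differed in the retinoblastoma protein Rb. The 10 genes were chosen by symbol alone: Pola1, Pola2, Prim1 and Prim2 of DNA polymerase alpha-primase, Pold1, Pold2 and Pold3 of DNA polymerase delta, and Pole, Pole2 and Pole3 of DNA polymerase epsilon. They are 10 of 30875 gene symbols in the array table and are covered by 15 probes. RNA of 8 of them was detected on at least 1 array, and these 8 are among the 12616 genes that could be analysed. Pola1 and Pole2 were not detected on any of the 4 arrays.

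Cells copy their DNA with 3 polymerases. Polymerase alpha and primase form a complex that lays short RNA-DNA primers, after which polymerase epsilon extends the leading strand and polymerase delta the lagging strand. Each enzyme has a catalytic subunit (Pola1, Pold1 and Pole, with Prim1 making the RNA primer) and smaller subunits that hold the complex together or tie it to the sliding clamp and the helicase. The genes for this machinery are known as targets of the E2F transcription factors. Rb binds and represses these factors in G1 phase until cyclin-dependent kinases (Cdks) phosphorylate it at many sites. The study reported that Rb mono-phosphorylated by Cdks with cyclin D is the active form in early G1 phase.

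All 4 conditions used MEFs of strain FVB;129 whose Rb gene is flanked by LoxP sites on both alleles. Parental MEFs received a solution without TAT-Cre, a cell-permeable Cre recombinase, and medium without virus, so their Rb stayed intact. Rb-deleted MEFs received TAT-Cre and medium without virus. The remaining MEFs received TAT-Cre together with a retrovirus, either for HA-tagged wild-type Rb (WT Rb-HA) or for a tagged Rb whose Cdk sites were mutated so that Cdks cannot phosphorylate it (ΔCdk Rb-HA). Each treatment was given 2 times for 1 h, 3 h apart. According to the methods, all cells were held in early G1 phase by contact inhibition for 48 hr, released for 4 hr and treated with 100 ng/ml doxorubicin, a DNA-damaging drug, for 3 hr, and the question was which form of Rb is active in this damage response. The labels do not mention doxorubicin. Retroviral infection was given only with an Rb construct, so the virus and the construct cannot be told apart. TAT-Cre was given in every condition but the parental one. In a ratio of Rb-deleted to parental, loss of Rb and exposure to TAT-Cre therefore cannot be told apart, and each other ratio to parental holds that exposure too. The words "without Rb" below name the Rb-deleted array, which had both.

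There was 1 array per condition and no replicate. The number of arrays therefore limits the precision, no p-value can be given, and the error beside each value is the bead standard error (SE), the spread over the copies of a probe within an array, which leaves out differences between cultures. Mean intensity lay between 336 and 346 on the 4 arrays, and 15950 to 16740 probes were detected at p below 0.01. The probes of the 10 genes were read from 26 to 69 beads each. Rb1, the deleted gene, read 543 on the parental array and 160.5 to 181 on the others at its probe at transcript position 4421. All 12 fibroblast markers were detected on every array, with a summed intensity of 72366 to 86311. Of 12 leukocyte markers, 9 were analysed, while Ptprc, the pan-leukocyte antigen, was not detected with Fcer1g and Itgam. The 9 summed to 10075 on the parental array and to 4767 to 6048 on the other arrays.

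A ratio below is a log2 difference of normalized intensity between 2 arrays, with its bead SE, from the brightest probe of a gene unless another is named. A ratio past 1.6-fold (0.68 on the log2 scale) was the study's own filter and is called a change here. Intensities of different probes are not comparable as levels, so genes are set side by side only by their ratios.

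The polymerase alpha-primase genes were read first. Pola2, the regulatory subunit that tethers the catalytic subunit (chromosome 19, probe at position 2119), had an intensity of 76.6 (bead SE 3.58) in parental MEFs and of 120.4 (4.57) after Rb deletion, against 95.0 (5.35) with WT Rb-HA and 107.4 (5.40) with ΔCdk Rb-HA. It was lowest with endogenous Rb, highest without Rb, and between these with either Rb-HA. Over parental, Pola2 was higher by 0.89 (bead SE 0.12, 1.86-fold) without Rb, by 0.42 (0.15) with WT Rb-HA and by 0.69 (0.13, 1.61-fold) with ΔCdk Rb-HA.

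Prim2, the large primase subunit (chromosome 1), has a pair of detected probes. The probe at position 1762 read 96.7 (4.10), 143.0 (5.28), 103.3 (3.03) and 121.2 (5.51), given here and below in the order parental, Rb-deleted, WT, ΔCdk. The probe at position 1608 read 93.8, 125.0, 106.5 and 114.2 in the same order. Both probes put Rb-deleted highest, ΔCdk Rb-HA next, then WT Rb-HA and parental, though at position 1762 the last pair differed by about 1 bead SE. In Rb-deleted MEFs the ratio to parental was 0.73 (0.10) at position 1762 and 0.55 (0.11) at position 1608, so the 1.6-fold filter was passed at the brighter probe and missed at the other. WT Rb-HA over Rb-deleted was -0.62 (0.08) at the former and -0.31 at the latter.

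Prim1, the catalytic primase subunit, was close to background. Its only probe (position 1349) read 46.4 (2.84), 60.5 (2.91), 53.3 (3.42) and 54.9 (2.96) in the same order and was detected on the Rb-deleted array alone, with detection p-values of 0.104, 0.0011, 0.034 and 0.015. A fold against an undetected probe is given as a bound on the background-corrected, normalized scale, against the higher of the probe's own value and the dimmest detected probe of that array. On this scale the bounds for Prim1 without Rb were 1.13-fold over parental MEFs, 1.12-fold over WT Rb-HA and 1.18-fold over ΔCdk Rb-HA. They leave out the bead error and depend on the processing, so they are not established minimums. The fitted ratio of ΔCdk Rb-HA to Rb-deleted was -0.26 (0.18), within 2 bead SE, and -0.15 without background correction. For that pair the deposited intensities, background included, were 54.9 and 60.5. The fitted ratio of Rb-deleted to parental was 0.66 (0.17), just short of the filter.

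Pola1, the catalytic subunit that extends the RNA primer with DNA, gave no reading. Its single probe (chromosome X, position 4594) had intensities of 35.2, 34.4, 34.6 and 38.3, with detection p-values of 0.844, 0.866, 0.907 and 0.546. That probe holds 28% G and C. Of the 1088 probes on the array with under 30% G and C, 16 (1.47%) were detected on any array, against 42.0% of the probes with 50 to 60%. Whether the gene or the probe was silent was not tested.

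**Figure D1:**
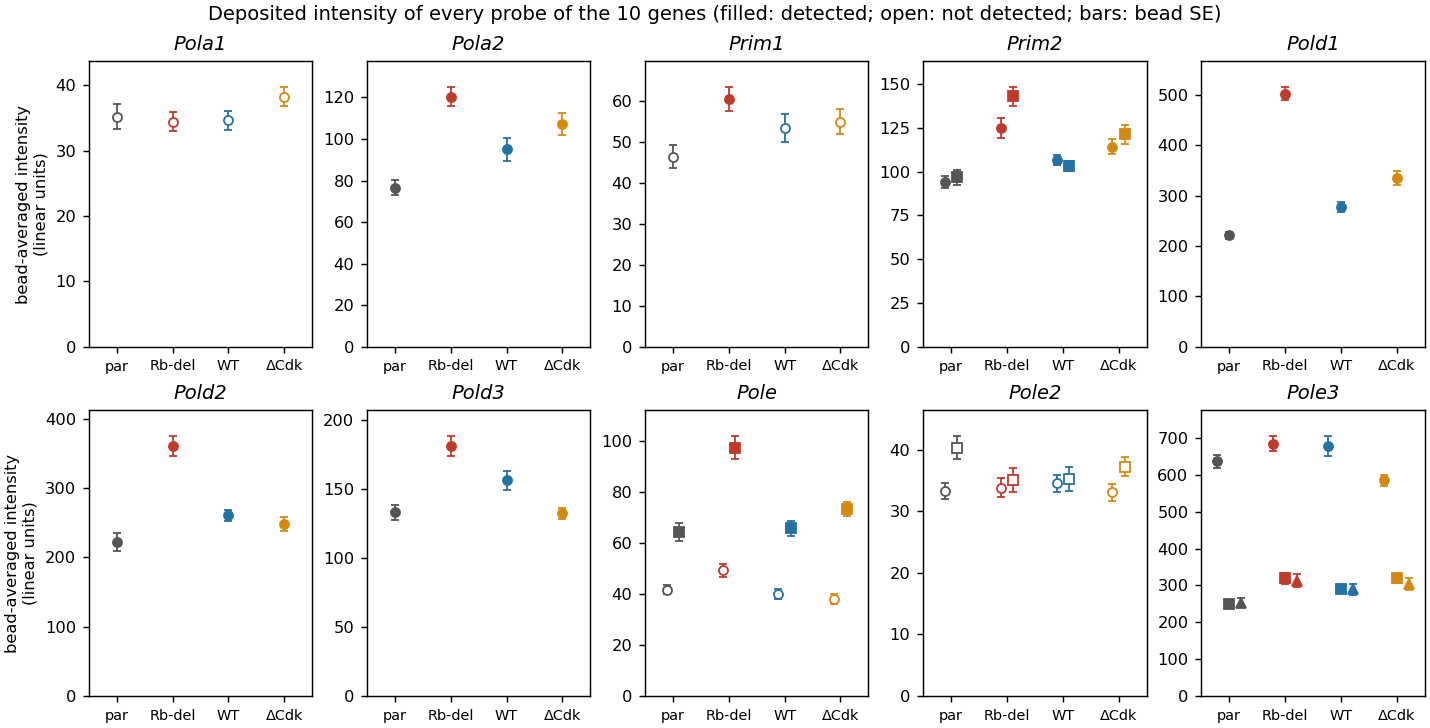
Deposited bead-averaged intensity (linear units, axis from 0) of all 15 probes of the 10 genes on each array (par, parental; Rb-del, Rb-deleted; WT, WT Rb-HA; ΔCdk, ΔCdk Rb-HA), with different marker shapes for different probes of a gene. Bars are bead SE, filled markers are detected probes (p below 0.01) and open markers are not. The Rb-deleted array is highest at each probe detected on all 4 arrays except the Pole3 probe at position 109. At that probe Rb-deleted and ΔCdk Rb-HA are near equal. The Prim1 probe was detected on the Rb-deleted array alone.

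Among the polymerase delta genes was the largest ratio of the set. The promoters of its 4 subunits are shown as a description, and a link between their E2F letters and their ratios was not tested. Each is the RefSeq window of 250 bases before to 50 bases after the start on assembly GRCm38.p6, written 5′ to 3′ on the strand of the gene. They lie at chr7:44548766-44549065 (minus strand) for Pold1, chr11:5878207-5878506 (minus) for the window of Pold2 that holds matches, one of its pair, chr7:100121453-100121752 (minus) for Pold3 and chr19:4231643-4231942 (plus) for Pold4. Capitals mark a match to the E2F letters TTTCCCGC in Pold1 and Pold3 and to CCAAT in Pold2 and Pold4, on either strand.
Pold1: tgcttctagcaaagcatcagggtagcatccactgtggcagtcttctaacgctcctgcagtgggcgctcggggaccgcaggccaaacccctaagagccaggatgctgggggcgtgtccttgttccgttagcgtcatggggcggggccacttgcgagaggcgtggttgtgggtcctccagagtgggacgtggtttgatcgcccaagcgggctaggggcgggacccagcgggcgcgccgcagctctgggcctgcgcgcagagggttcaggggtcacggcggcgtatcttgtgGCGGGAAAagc
Pold2: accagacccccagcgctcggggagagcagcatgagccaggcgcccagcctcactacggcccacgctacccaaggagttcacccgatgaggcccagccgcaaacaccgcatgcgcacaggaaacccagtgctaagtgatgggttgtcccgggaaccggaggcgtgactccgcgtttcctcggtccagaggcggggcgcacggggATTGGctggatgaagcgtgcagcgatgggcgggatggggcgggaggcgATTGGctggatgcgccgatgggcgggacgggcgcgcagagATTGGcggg
Pold3: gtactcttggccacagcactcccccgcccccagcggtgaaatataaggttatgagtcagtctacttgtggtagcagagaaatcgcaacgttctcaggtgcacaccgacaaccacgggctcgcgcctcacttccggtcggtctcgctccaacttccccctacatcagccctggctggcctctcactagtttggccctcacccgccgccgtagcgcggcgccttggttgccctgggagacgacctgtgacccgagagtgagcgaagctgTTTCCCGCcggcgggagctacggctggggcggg
Pold4: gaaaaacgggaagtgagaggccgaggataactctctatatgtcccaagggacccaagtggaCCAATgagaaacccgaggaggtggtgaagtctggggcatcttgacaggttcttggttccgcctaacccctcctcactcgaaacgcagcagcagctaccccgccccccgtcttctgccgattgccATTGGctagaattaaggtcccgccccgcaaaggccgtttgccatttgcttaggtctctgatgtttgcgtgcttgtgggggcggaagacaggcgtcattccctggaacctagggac
The E2F match of Pold1 starts at base 40 after the start on the opposite strand and that of Pold3 at base 18 on the gene's own strand. The Pold2 and Pold4 windows hold none of the E2F letters searched. The ratio of Rb-deleted to parental was 0.80 for Pold2, which lacks these letters, and 0.55 for Pold3, which has them. Pold2 holds CCAAT 3 times on the opposite strand, starting at -47, 2 and 42, and Pold4 at -189 and, on the opposite strand, at -65.

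Pold1, the catalytic subunit with its proofreading exonuclease (chromosome 7, position 3362), read 221.6 (7.01) in parental MEFs and 502.8 (12.9) after Rb deletion, with 277.6 (9.27) for WT Rb-HA and 335.0 (13.8) for ΔCdk Rb-HA. The 4 readings lie further apart than their bead errors, in the order parental, WT Rb-HA, ΔCdk Rb-HA, Rb-deleted. Pold1 was 2.47-fold higher in Rb-deleted than in parental MEFs, a log2 ratio of 1.30 (0.06) that ranked 20 from the top among the 12616 genes. The ratio to parental was 0.41 (0.07) with WT Rb-HA and 0.73 (0.08, 1.66-fold) with ΔCdk Rb-HA.

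Pold2, the B subunit that bridges the catalytic and accessory subunits (chromosome 11, position 1269), read 222.1 (13.3), 360.5 (14.4), 260.6 (8.37) and 248.2 (9.90) in the same order. The Rb-deleted array was highest, and the arrays of the Rb-HA constructs did not differ beyond their bead errors. Its ratio to parental was 0.80 (0.11) without Rb, 0.30 (0.11) with WT Rb-HA and 0.25 (0.12) with ΔCdk Rb-HA.

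Pold3, the subunit that carries a clamp-binding motif (chromosome 7, position 2740), read 132.9 (5.40), 180.8 (7.17), 156.1 (6.78) and 132.1 (4.19) in that order. ΔCdk Rb-HA and parental gave near-equal intensities, and WT Rb-HA lay between them and Rb-deleted. Over parental the ratios were 0.55 (0.09) without Rb, 0.29 (0.10) with the WT construct and 0.04 (0.09) with ΔCdk Rb-HA, none past 1.6-fold.

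Pold4, the smallest delta subunit and not one of the 10, went another way at both of its probes. At position 487 (chromosome 19) it read 298.3, 311.6, 389.1 and 424.6, and at position 691 it read 224.5, 235.7, 266.9 and 311.5. Rb-deleted was near parental while both Rb-HA arrays were higher. The ratio to parental in Rb-deleted MEFs was 0.11 (0.08) at position 487, and in ΔCdk Rb-HA MEFs it was 0.63 (0.09) there and 0.60 (0.07) at position 691. No ratio of Pold4 to parental passed 1.6-fold. Pold4 was thus the only delta subunit above Rb-deleted with both Rb-HA constructs, by 0.36 (0.08) with WT Rb-HA and 0.53 (0.08) with ΔCdk Rb-HA at position 487.

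Of the polymerase epsilon genes, Pole encodes the catalytic subunit. Its probe at position 6765 (chromosome 5) read 64.3 (3.42), 97.4 (4.58), 65.9 (2.87) and 73.4 (2.77). WT Rb-HA and parental differed by less than the bead error, and Rb-deleted stood above the rest. Its ratio to parental was 0.88 (0.15) without Rb, 0.01 (0.16) with WT Rb-HA and 0.31 (0.15) with ΔCdk Rb-HA. A further probe for Pole, at position 4271 of another transcript, was not detected on any array (41.8, 49.3, 39.9 and 38.2).

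Pole2, the B subunit of polymerase epsilon, was not detected at either probe. The probe at position 1618 (chromosome 12, 16% G and C) read 40.4, 35.1, 35.2 and 37.3, and the probe at position 1040 (52% G and C) read 33.3, 33.8, 34.5 and 33.0. These are background intensities, whose order carries no information.

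Pole3 encodes a histone-fold subunit that is also part of the CHRAC chromatin-remodelling complex, and its 3 detected probes disagreed most on the ΔCdk Rb-HA array. The brightest, at position 11, read 636.9 (17.1), 684.9 (20.6), 678.6 (26.4) and 585.5 (14.7). The probes at positions 109 and 466 (chromosome 4) read 250.1, 319.2, 291.3 and 319.8, and 253.1, 312.7, 289.4 and 303.8. At position 11 ΔCdk Rb-HA was the lowest array, whereas at the other probes it was level with Rb-deleted. The ratio of ΔCdk Rb-HA to parental was -0.04 (0.05) at position 11, 0.47 (0.09) at position 109 and 0.37 (0.11) at position 466. In Rb-deleted MEFs the ratios were 0.15 (0.06), 0.43 (0.10) and 0.38 (0.11), all above 0 and none past 1.6-fold. With WT Rb-HA they were 0.14 (0.07), 0.29 (0.09) and 0.26 (0.10). Pole4, its histone-fold partner in polymerase epsilon, read 389.4, 466.6, 390.9 and 348.6 and likewise had its highest value without Rb, with a ratio to parental of 0.32 (0.06).

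**Figure D2:**
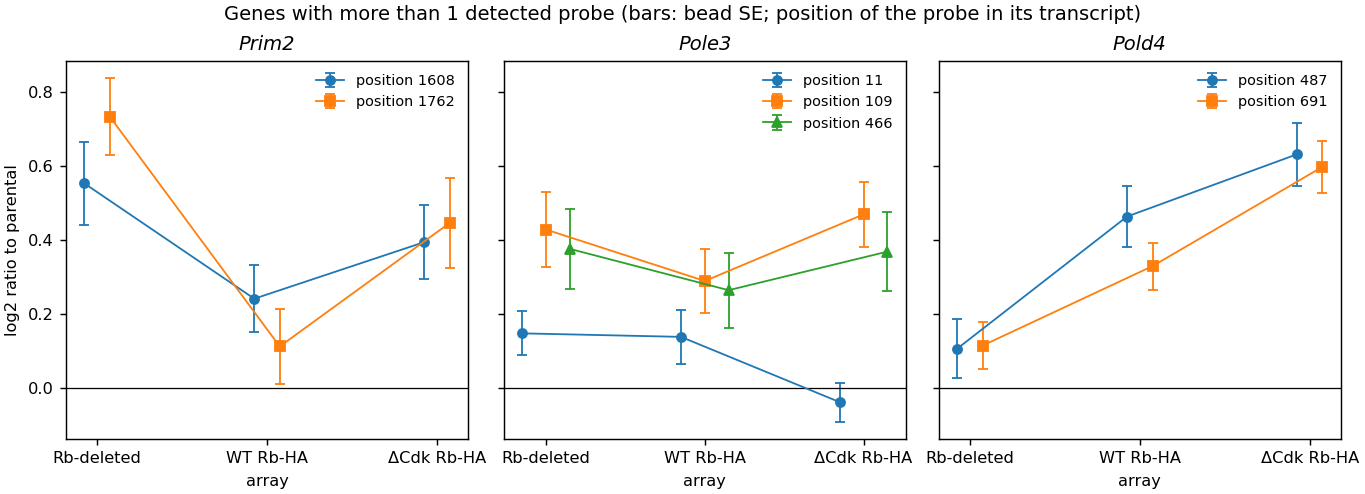
Log2 ratio of normalized intensity to the parental array, probe by probe, for Prim2, Pole3 and Pold4, each with more than 1 detected probe. Bars are bead SE; the probes of Prim2 and of Pold4 keep one order of arrays, while for Pole3 the probe at position 11 gives -0.04 on the ΔCdk Rb-HA array and those at positions 109 and 466 give 0.47 and 0.37.

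Rb-deleted against parental MEFs, which differed in both Rb and TAT-Cre, was the first comparison. Of the 8 analysed genes, 5 were increased past 1.6-fold in Rb-deleted over parental MEFs (Pold1, Pola2, Pole, Pold2 and Prim2) and none was decreased, beside 2.14% of all 12616 genes increased. The median ratio was 0.77 for the 8 genes, 0.80 for the 7 genes detected on all 4 arrays and 0.02 for all genes. Prim1 was analysed only through its detection on the Rb-deleted array, so counts of direction are given over the 7 genes detected on all 4 arrays. All 7 were above 0 in this comparison by more than 2 bead SE, beside 52.3% of all genes above 0. The share of all genes past 2 bead SE was not computed, here or for the counts below. Prim2 at 0.73 was the gene just inside the filter, and Prim1 at 0.66 and Pold3 at 0.55 were those just outside it. Without background correction 2 of the 5, Pold1 and Pold2, were past 1.6-fold. The leukocyte markers moved over the same pair of arrays, with a median ratio of -0.94 and all 9 below 0. Their part in the ratios of the polymerase genes was not tested, and fewer cells of a type and less RNA per cell cannot be told apart in such RNA.

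Re-expression of Rb was compared with the same parental array, which all 3 ratios to parental share. With WT Rb-HA, 0 of the 8 genes were increased past 1.6-fold, beside 0.888% of all genes. The ratios ran from 0.01 for Pole to 0.42 for Pola2, with a median of 0.28. Of the 7 genes detected throughout, 4 were above 0 by more than 2 bead SE, and 51.3% of all genes were above 0. Prim2 and Pole3 were within 2 bead SE at their brightest probes and past it at their other detected probes. These gave 0.24 (0.09) for Prim2 at position 1608, and 0.29 (0.09) and 0.26 (0.10) for Pole3 at positions 109 and 466. With ΔCdk Rb-HA, Pold1 and Pola2 were increased, 2 of 8 genes beside 2.58% of all genes. The median was 0.35, and 6 of the 7 genes detected throughout were above 0, beside 48.9% of all genes. By more than 2 bead SE, 5 of them were above 0, and Pole3 was the gene not above 0, at its brightest probe. Both calls lie near the filter, and neither was past 1.6-fold without background correction or with median scaling in place of quantile normalization.

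**Figure D3:**
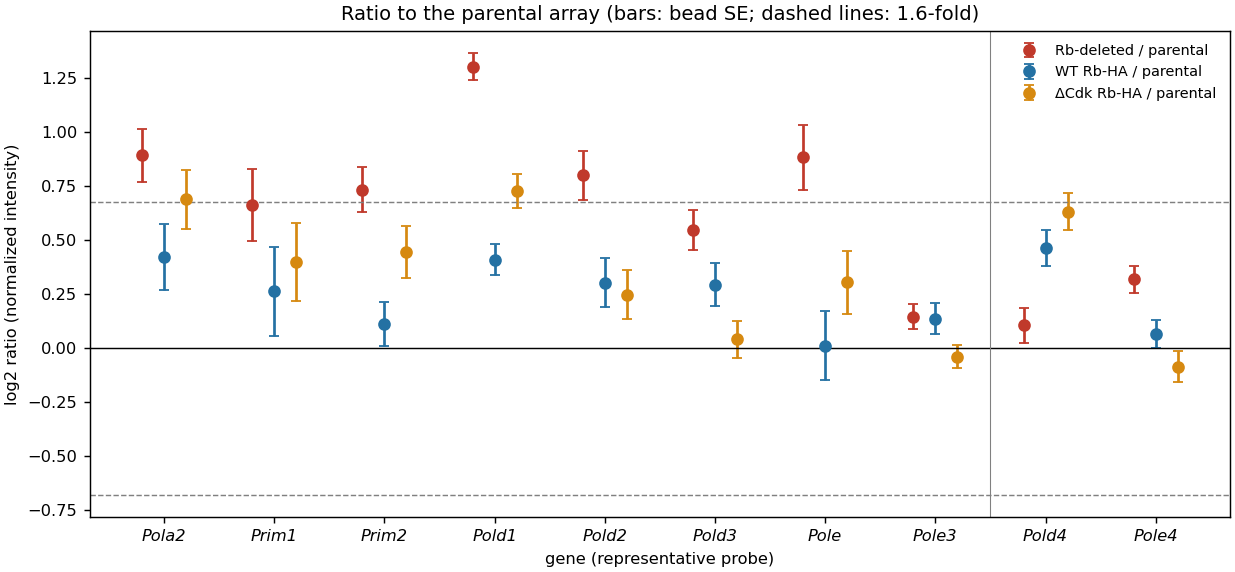
Log2 ratio of normalized intensity to the parental array at the brightest probe of the 8 analysed genes and, right of the vertical line, of Pold4 and Pole4, for Rb deletion (red), WT (blue) and ΔCdk Rb-HA (orange). Bars are bead SE and dashed lines mark 1.6-fold. The Rb-deleted value is the highest of the 3 for each of the 7 genes detected on all 4 arrays. For Pole3 it differs from WT Rb-HA by less than the bead SE. Prim1 was kept only through its detection on the Rb-deleted array, and for Pold4 the Rb-deleted value is the lowest.

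The arrays that received TAT-Cre can also be compared with each other, without the parental array. WT Rb-HA lay below Rb-deleted in all 7 genes detected on every array, by more than 2 bead SE in 6 of them. Of all genes, 46.1% were above 0 in this comparison. The median over the 8 genes was -0.48 against -0.02 over all genes, and over the 7 genes detected on every array it was -0.50. Pold1 at -0.89 (0.06) and Pole at -0.87 (0.13) were decreased past 1.6-fold, 2 of 8 genes beside 0.484% of all genes decreased, and without background correction Pole was short of the filter. Pole3 was the gene that did not separate, at -0.01 (0.08). The leukocyte markers had a median of -0.16 between these arrays and the genes of G2 phase and mitosis a median of -0.24 over 17 genes, and their part was not tested.

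ΔCdk Rb-HA was below Rb-deleted by more than 2 bead SE in 5 of these 7 genes besides Pole3, whose probes disagreed, and Pola2 was below by less. Prim2 is among the 5 at position 1762, while at position 1608 it was at -0.16 (0.11), within 2 bead SE. Of all genes, 45.4% were above 0 in this comparison. Pole3 was at -0.19 (0.06) at position 11, 0.04 (0.10) at position 109 and -0.01 (0.12) at position 466. The median was -0.40 over the 8 genes, Prim1 included, and -0.51 over the 7 detected on every array. Of the 8 genes, 0 were decreased past 1.6-fold, beside 1.95% of all genes decreased. The values ran from -0.58 for Pold1 (0.07) and Pole (0.12) to -0.19 for Pole3 at its brightest probe. Pold2 at -0.55 (0.08) and Pold3 at -0.51 (0.09) followed Pold1 closely, while Pola2 at -0.20 (0.11) and Prim2 at -0.29 (0.11) were nearer to Rb-deleted.

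The 2 forms of Rb were then set against each other. ΔCdk Rb-HA was above WT Rb-HA for Prim2 by 0.33 (0.11), Pold1 by 0.32 (0.08), Pole by 0.29 (0.13) and Pola2 by 0.27 (0.14), the last within 2 bead SE, and Prim1 was not detected on either array. It was below WT Rb-HA for Pold3, with a ratio of -0.25 (0.09), for Pole3, with -0.18 (0.07) at position 11, and for Pold2, with -0.05 (0.08). Prim2, Pold1 and Pole were above by more than 2 bead SE, and Pold3 and Pole3 were below by as much. For Prim2 this holds at position 1762, while its probe at position 1608 gave 0.15 (0.09), within 2 bead SE. Of all genes, 48.5% were above 0 in this comparison. For Pole3 the direction belongs to its brightest probe, since the mean over its 3 probes was 0.036. No gene passed 1.6-fold, beside 0.84% of all genes increased. Within polymerase delta, Pold1 was higher with ΔCdk Rb-HA and Pold3 lower, Pold2 was within its bead error, and Pold4 was higher, at 0.17 (0.08) and 0.27 (0.07) at its probes. Pole4 was at -0.15 (0.07). Between these arrays the leukocyte markers had a median of 0.29, with 7 of 9 above 0, and the fibroblast markers a median of -0.18, with 8 of 12 below 0, and their part in these ratios was not tested.

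**Figure D4:**
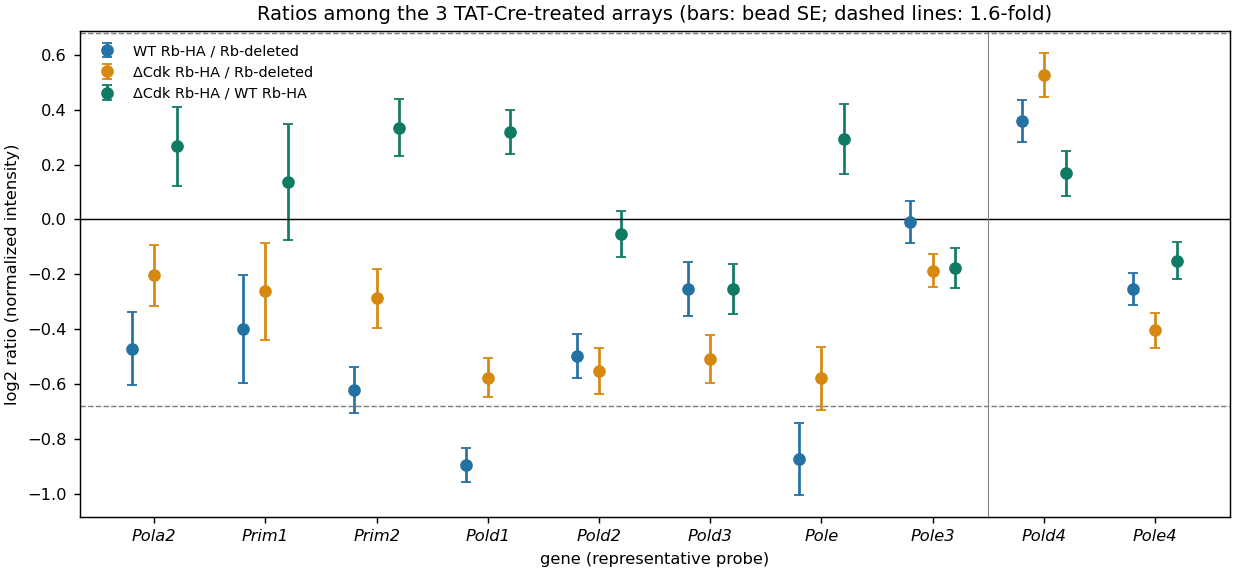
Log2 ratios of normalized intensity between the 3 arrays that received TAT-Cre, for the brightest probe of the 8 analysed genes and, right of the vertical line, of Pold4 and Pole4. Bars are bead SE and dashed lines mark 1.6-fold. At these probes both Rb-HA arrays lie below Rb-deleted for the 8 analysed genes and Pole4, and above it for Pold4. For Pole3 the probes at positions 109 and 466 give ΔCdk Rb-HA level with Rb-deleted, and Prim1 was detected on the Rb-deleted array alone. ΔCdk Rb-HA against WT Rb-HA runs from -0.25 (Pold3) to 0.33 (Prim2).

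Other genes of the fork were read with the same ratios. Of 33 fork partners on the array (the helicase, clamp, clamp loaders, single-strand binding proteins and nucleases), 31 were analysed, and 24 of them were increased in Rb-deleted over parental MEFs, with a median of 0.95. Mcm3 at 2.32 and Mcm6 at 2.25, subunits of the replicative helicase, were the highest of them, and Pcna, the sliding clamp of polymerases delta and epsilon, was at 0.30. With WT Rb-HA the median ratio to parental was 0.47 (8 increased), and with ΔCdk Rb-HA it was 0.75 (19 increased). ΔCdk Rb-HA was above WT Rb-HA in all 31, with a median of 0.34, while for the polymerase subunits this held in 4 of the 7 detected on every array, with Pole3 read at its brightest probe. Genes of G2 phase and mitosis were above in 17 of 17, with a median of 0.36. Over all genes 48.5% were above 0 between these arrays.

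Genes of polymerases outside the fork and of their partners lay closer to 0. Of 15 genes listed as repair and translesion polymerases, 12 were analysed, among them Mad2l2, Poldip2 and Poldip3, which are not polymerases themselves. None was past 1.6-fold in any of the 6 comparisons, and the median was 0.11 in Rb-deleted over parental MEFs. The largest ratio among them in that comparison was 0.53 for Ccdc111, a primase-polymerase that can restart stalled forks. The 6 genes of mitochondrial DNA replication had a median of 0.06, again with none past the filter in it. The 8 analysed subunits of RNA polymerase II had a median of 0.19, with Polr2f alone increased, at 0.72.

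**Figure D5:**
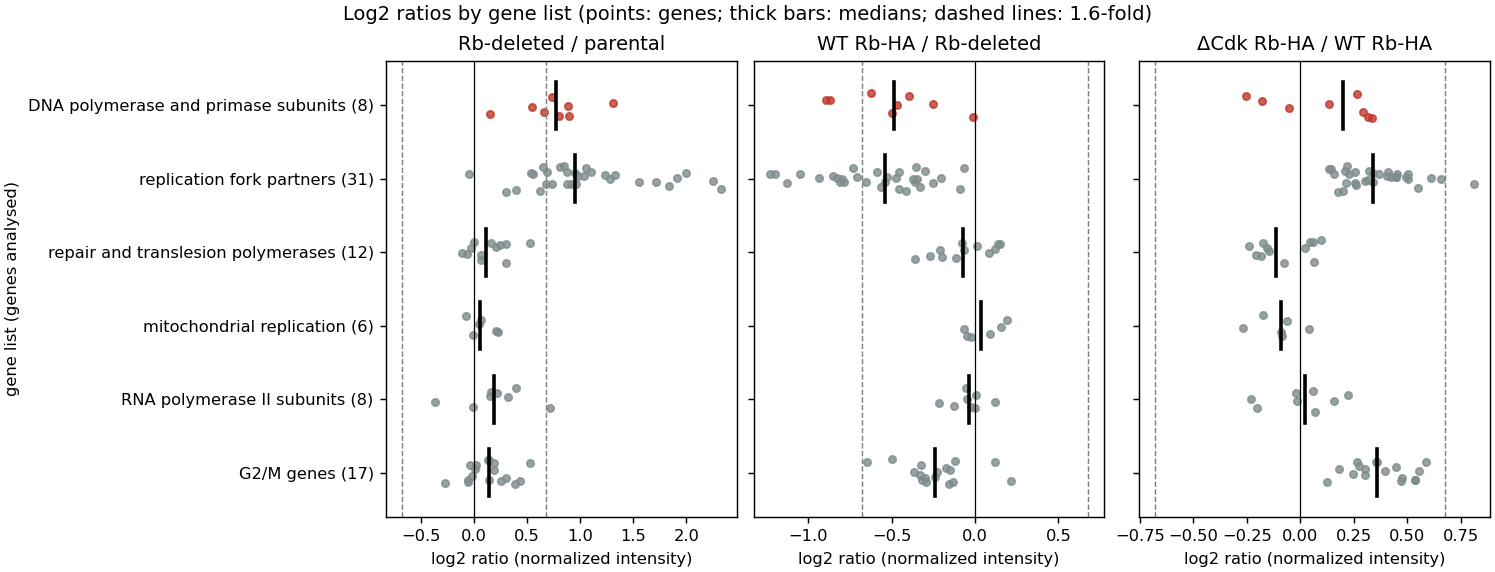
Log2 ratio of normalized intensity of each analysed gene (points) and the median of each list (thick bars) in 3 comparisons, with dashed lines at 1.6-fold. In Rb-deleted over parental MEFs the medians are 0.77 for the polymerase and primase subunits and 0.95 for the fork partners, against 0.06 to 0.19 for the other 4 lists, and in ΔCdk Rb-HA over WT Rb-HA the fork partners and G2/M genes are all above 0 while the polymerase and primase subunits lie on both sides.

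Promoter windows were found for 8 of the 10 genes, and none for Prim2 and Pole. The 4 E2F runs of 8 letters (TTTCCCGC, TTTCGCGC, TTTGCCGC and TTTGGCGC, either strand) were present in Pola1, Pold1, Pold3 and Pole2, 4 of 8 genes, beside 2.6% of all 27025 genes in the table (2.26% of 32851 windows). They were also present in 8 of 26 fork partners, 0 of 9 repair and translesion polymerase genes and 3 of 9 RNA polymerase II genes with a window. Pole4, not one of the 10, held TTTCCCGC in each of its windows. The same runs without their leading T, 7 letters each, were chosen after the windows had been seen and lie within the longer ones, and they added Prim1 and Pole3, beside 10.9% of genes. CCAAT was present in Pola1, Prim1 and Pold2, beside 41.1% of genes, and in Prim1 it overlaps the E2F letters at -9. Pola2, which was increased without Rb, held neither the exact E2F letters searched nor CCAAT in its window. Near its end that window holds TTTGGCGG, which differs from the searched TTTGGCGC in the last base. Such near matches were not counted for any gene. A match is a run of letters and not a shown binding site.

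Among 10830 other genes detected on all 4 arrays, those whose 3 ratios to parental lay nearest to the median of the 8 genes (0.77, 0.28 and 0.35) were Dlk2, Pdxp, Siva1, Nup85 and Cdk2, at Euclidean distances of 0.018, 0.086, 0.096, 0.099 and 0.105. Dlk2 gave 0.75, 0.27 and 0.35, and Cdk2, the kinase of S phase entry, gave 0.68, 0.25 and 0.40. Likeness over 3 ratios from 4 arrays is a description only.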

How the data were processed

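Expression was measured on 4 Illumina MouseWG-6 BeadChip arrays, 1 per condition, and the labels gave each array's condition. The authors deposited bead-averaged intensity values on a linear scale, not normalized, with bead SE and bead number. A detection p-value per probe and array was deposited beside them. The processing after scanning is not given in the sources used here.

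Background was corrected with limma 3.58.1 (R 4.3.3) by normexp from the detection p-values, with an offset of 16. Arrays were quantile normalized and log2 transformed. Probes detected at p below 0.01 on at least 1 array were kept, and the brightest stood for its gene. A log2 ratio near background is thereby pulled toward 0. The bead SE was carried through the normalization of each array. With 1 array per condition no test across arrays was possible, and the calculation was tested on simulated data. All 10 genes were named with every probe, with Rb1, Pold4, Pole4, the largest and smallest of each other list and the 5 nearest profiles. The genes, lists and alternatives were chosen with earlier results of these data known. Alternatives changed the background correction, offset, normalization, filter, probes per gene, threshold and use of bead SE. A list of histone-fold partners of Pole3 (median ratio of Rb-deleted to parental 0.03), endothelial markers (1 of 6 detected) and epithelial markers (4 of 6) were also read. Promoter windows came from RefSeq (GRCm38.p6). Python 3.11.15 with pandas 2.3.3 was used.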

Additional observations from a re-analysis of the deposited data

How the results depend on the processing

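The median over the polymerase and primase genes kept its direction in all 6 comparisons under each alternative. The median of Rb-deleted over parental was 0.77 and became 0.60 without background correction and 0.54 with an offset of 50, and that of ΔCdk Rb-HA over parental was 0.35 and became 0.23 and 0.20. The median of WT Rb-HA over Rb-deleted was -0.48 and became -0.39 with an offset of 50. That of ΔCdk Rb-HA over Rb-deleted was -0.40 and became -0.29 with an offset of 50, -0.51 over the genes detected on all 4 arrays and -0.28 without a filter on dim probes, which adds the undetected Pola1 and Pole2. Of the 5 genes increased in Rb-deleted over parental MEFs, 2 were past 1.6-fold without background correction, 2 with an offset of 50 and 1 (Pold1) past 2-fold. Of the 2 decreased in WT Rb-HA over Rb-deleted MEFs, 1 was past 1.6-fold without background correction, 1 with an offset of 50 and 0 past 2-fold. Of the 2 increased in ΔCdk Rb-HA over parental MEFs, 0 were past the threshold without background correction, with an offset of 50, with median scaling or at 2-fold. Pole3 reversed in ΔCdk Rb-HA over WT Rb-HA, from -0.18 to 0.036, when its 3 detected probes were averaged, and ΔCdk Rb-HA over Rb-deleted went from -0.19 to -0.05. No paired analysis was possible because each condition has 1 array, and for the same reason none could be left out. Probes near background, Prim1 above all, limit what can be read. Whether probes lie in coding sequence was not analysed here.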
